A study of Mus musculus with 6 samples.

Results

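Sall1 and Chd9 are the 2 protein-coding genes that the study joined in a chromatin interaction on mouse chromosome 8. Sall1 encodes a zinc finger transcription factor that represses genes through the NuRD histone deacetylase complex and is used in embryonic development. Chd9 encodes a chromodomain helicase, a motor protein that moves nucleosomes. The genes were chosen by name, as 2 of the 21000 protein-coding genes that had a curated RefSeq transcription start site (TSS). Around them lay 28 of the 41014 peaks of the deposited ATAC-seq list, in a locus that runs from the outer edge of the first loop anchor to the far end of Chd9 (chr8:89000001-91054516, mm10, 2.05 Mb). The third protein-coding gene of the locus is Tox3, which encodes an HMG-box protein.

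The list comes from V6.5 cells without treatment. This line of mouse embryonic stem cells (mESCs) was grown with serum and LIF. The labels add irradiated fibroblast feeders from mouse embryos, while the study's methods name no feeders but the inhibitors CHIR99021 and PD0325901. In ATAC-seq, a transposase inserts sequencing adapters where DNA is open. Each library was made from 50000 viable cells, and the labels state that fragments of mononucleosome and dinucleosome size were selected. The 2 untreated replicates share 1 list with no values per replicate, so no spread between replicates, no depth per sample and no test could be given, and every number below is a description of that list. The 4 libraries of ZBTB21-degron mESCs (0 and 6 h of IAA, the auxin that triggers degradation of ZBTB21, 2 each) were not analysed here, and the treatment text that all labels share describes degron cells.

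Chromatin loops bring distant DNA segments together and are formed largely by cohesin, a ring complex that extrudes DNA until it meets a barrier such as CTCF. ZBTB21 is a zinc finger protein of the BTB family. The study defined ZBTB21-responsive loops as those that held ZBTB21 peaks and cohesin peaks that fell after its depletion. It took the 500 ranked highest and classified only loops longer than 500 kb, so short loops are missing from the set. An accessible site at a promoter is where the transcription machinery assembles, and accessible sites away from promoters include enhancers and CTCF sites.

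The score is a whole number deposited with each peak. Over the list it ran from 540 to 953 with a median of 696. The list did not hold every promoter of an active gene, which bears on each absence reported here. Only 28.5% of the protein-coding genes (5991 of 21000) had a listed peak within 1 kb of a TSS. Of 10 genes that mark mESCs, 4 had such a peak (Pou5f1, Nanog, Zfp42 and Dppa5a), while Sox2 and Klf4 did not. Of 11 genes that mark fibroblasts, the feeder cell type that the labels give, 1 did (Thy1). A gene without a peak is therefore only a gene that the list does not name, and whether the size selection played a part was not tested.

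The DNA just upstream of the genes is shown first, because the ZBTB21 peak of the locus lies there at Chd9 and no ATAC-seq peak was listed there at either gene. The Chd9 sequence is the 250 bases before the first RefSeq transcript start (chr8:90828052-90828301, GRCm38, plus strand), and lies wholly inside the ZBTB21 peak. The capitals mark the genomic parts of the study's biotinylated and nested 4C primers, of 27 and 31 bases, which point towards the gene. 4C is an assay that lists what a chosen viewpoint touches. The Sall1 sequence is the 250 bases before its TSS (chr8:89044163-89044412, minus strand, from the RefSeq promoters of GRCm38.p6), where the capitals mark a match to GGGNGTGG, letters that KLF factors bind, on the strand opposite to the gene.
Chd9 upstream: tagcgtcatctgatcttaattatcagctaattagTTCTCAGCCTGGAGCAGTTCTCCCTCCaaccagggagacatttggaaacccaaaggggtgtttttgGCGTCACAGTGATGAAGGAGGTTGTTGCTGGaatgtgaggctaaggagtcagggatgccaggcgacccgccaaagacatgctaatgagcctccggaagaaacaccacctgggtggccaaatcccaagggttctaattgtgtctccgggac
Sall1 upstream: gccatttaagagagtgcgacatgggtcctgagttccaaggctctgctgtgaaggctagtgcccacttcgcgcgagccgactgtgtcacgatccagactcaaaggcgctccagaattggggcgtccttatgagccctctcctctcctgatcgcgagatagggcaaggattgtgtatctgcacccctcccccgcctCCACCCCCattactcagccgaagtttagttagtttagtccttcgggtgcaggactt
The 250 bases of Sall1 had a GC content of 56.4% and an observed to expected CpG ratio of 0.658. Those of Chd9 had a GC content of 51.2% and a ratio of 0.369. Over the 20488 RefSeq promoters of protein-coding genes, the median GC content was 57.6% where a peak was listed within 1 kb of the gene's TSS and 54.8% where none was, with median ratios of 0.658 and 0.460. Sall1 thus lay at the middle of the promoters with a peak in its CpG ratio, while Chd9 lay under both medians. A KLF match was present in 18.1% of these promoters, so the match at Sall1 is common.

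No ATAC-seq peak was listed inside Sall1. The gene (chr8:89027242-89044162, minus strand, 16.9 kb) has 3 curated transcripts with 3 starts, and none of these had a peak within 1 kb. A gene body without a peak was common, at 50.4% of 21774 protein-coding genes. The nearest peak began 8.60 kb upstream of the TSS (chr8:89052764-89053571, 808 bp) and had a score of 856, higher than 95.5% of the list. It lies in an intron of Gm3134, a long noncoding RNA gene that starts inside Sall1 and runs the other way. By the distance from TSS to nearest peak, 48.7% of the protein-coding genes had a nearer peak than Sall1, which puts it near the median gene (9.23 kb).

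Within 50 kb of the Sall1 TSS lay 6 peaks, and within 100 kb 8, of which 2 lay beyond the first anchor and outside the locus. Of the 6 peaks, 4 lay downstream of the gene, all in the first anchor of the Sall1-Chd9 loop, described below with that loop. The peak nearest to the Sall1 TSS is printed because it is the only peak within 10 kb of a curated start of either gene. Its central 300 bases (chr8:89053018-89053317, plus strand) held none of the 7 motifs searched and so carry no capitals.
Peak upstream of Sall1: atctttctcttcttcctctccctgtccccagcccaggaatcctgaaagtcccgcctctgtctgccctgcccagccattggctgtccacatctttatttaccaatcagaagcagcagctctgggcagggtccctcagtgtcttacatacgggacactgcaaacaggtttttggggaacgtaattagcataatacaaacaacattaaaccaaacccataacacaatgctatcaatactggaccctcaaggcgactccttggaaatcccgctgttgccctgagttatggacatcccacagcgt

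**Figure D1:**
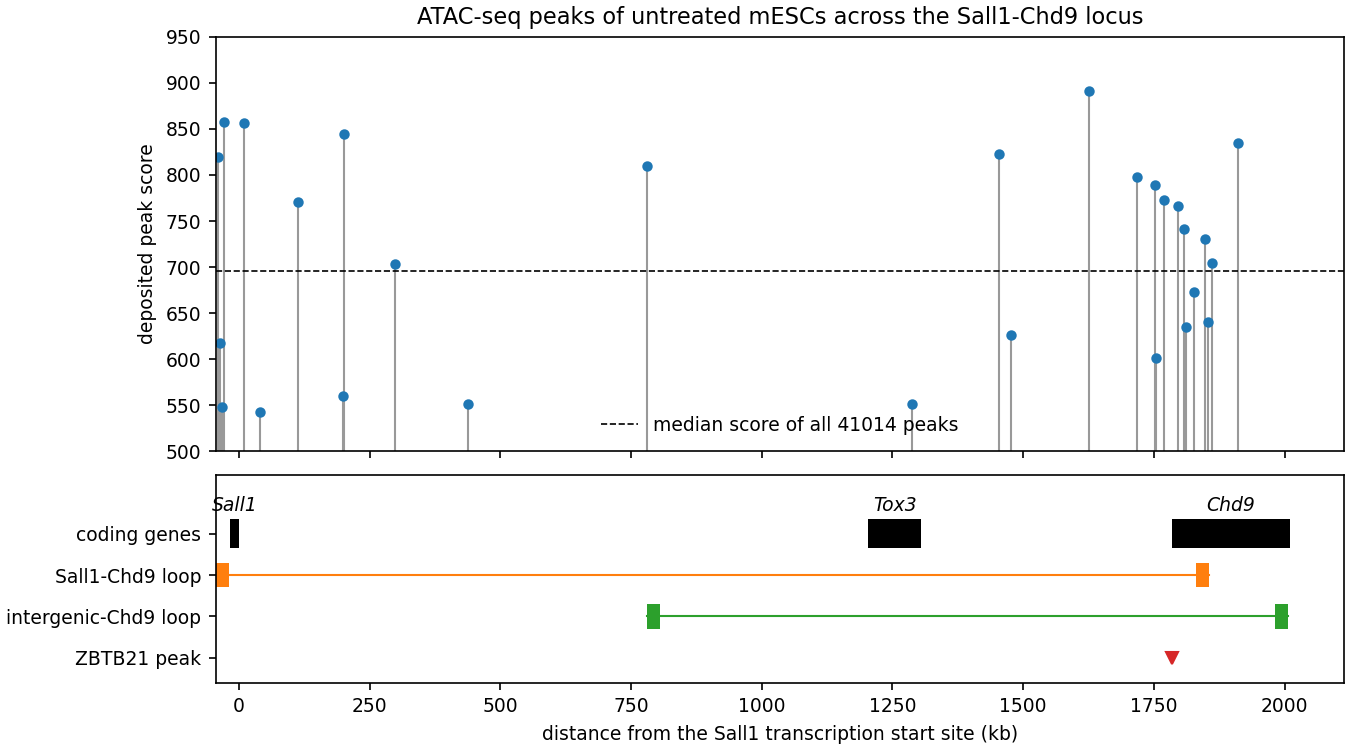
The upper panel plots the 28 ATAC-seq peaks of the locus by the distance of their centres from the Sall1 TSS (kb, x axis) and by deposited score (y axis, from 500), with a dashed line at the median score of the list (696). The lower panel shows the coding genes, the anchors of both responsive loops joined by lines and the ZBTB21 peak. Peaks crowd at both ends, and the longest stretch without a peak, 506 kb, runs from the first anchor of the intergenic-Chd9 loop to a peak inside Tox3.

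Chd9 held 8 ATAC-seq peaks, but none at the start of the full-length gene. Chd9 (chr8:90828302-91054516, plus strand, 226 kb) has 2 curated transcripts, whose starts are 103 kb apart, and 16 predicted transcripts with 9 further starts. The nearest peak to the first curated TSS (position 90828835) lay 11.1 kb inside the gene, and 53.5% of the protein-coding genes had a nearer peak. The nearest peak upstream, with a score of 773, ended 14.2 kb before it. The other curated TSS (position 90932249) had its nearest peak 22.7 kb away.

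The 8 peaks of Chd9 are all in introns of its curated transcripts, and their scores ran from 635 to 835 with a median of 718. From the 5′ end of the gene, the first peak (chr8:90839919-90840715) had a score of 766. The next 3 had scores of 741 (chr8:90851597-90852107), 635 (chr8:90854422-90855282) and 673 (chr8:90869403-90870796). The last of these was the widest peak of the locus, at 1394 bp, although its score lay under the median of the list. Then came the pair inside the loop anchor, with scores of 731 and 640, and a peak with a score of 705 (chr8:90904162-90904701).

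The highest score in Chd9, 835, belonged to its last peak (chr8:90954899-90955685, 787 bp), 126 kb from the first curated TSS. It covers the start of 2 predicted Chd9 transcripts (positions 90955367 and 90955368) and was the only listed peak within 1 kb of any annotated start of Chd9. After it no peak was listed up to the end of the gene. Of the protein-coding genes of at least 200 kb, 757 of 990 (76.5%) held fewer peaks than Chd9, and their median was 3. Per Mb, Chd9 held 35.4 peaks, against 15.0 over chromosomes 1 to 19, X and Y and 18.8 over chromosome 8.

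**Figure D2:**
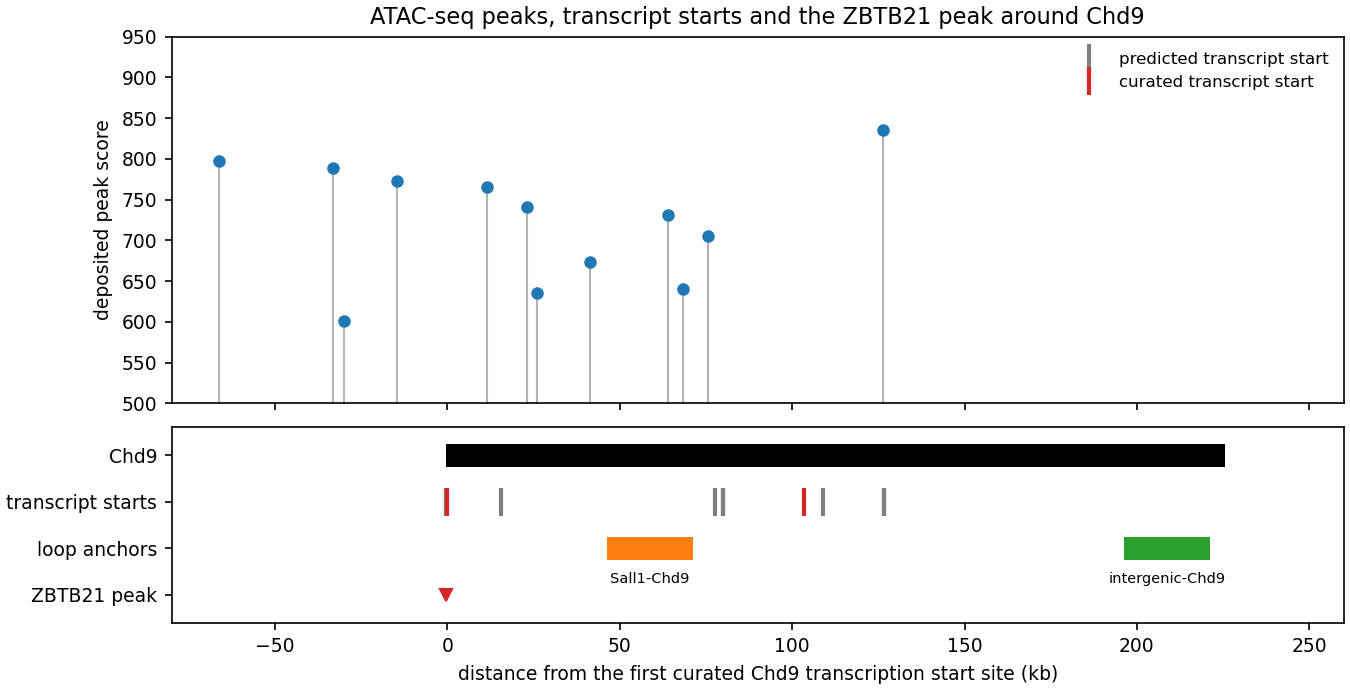
The upper panel plots the peaks by the distance of their centres from the first curated Chd9 TSS (kb, x axis) and by deposited score (y axis, from 500). The lower panel shows the gene, its transcript starts (red for curated, grey for predicted), the loop anchors and the ZBTB21 peak, which sits at the start of the gene with no ATAC-seq peak within 10 kb.

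Between the genes, 1785 kb separate the Sall1 TSS from the first curated Chd9 TSS, and the genes are transcribed away from each other. This interval held 16 peaks, or 8.97 per Mb, with scores from 543 to 891 and a median of 772. Tox3 (chr8:90247110-90349029, minus strand) held 1 of them, in an intron and with a score of 552, and its TSS was 17.2 kb from the nearest peak. Between Sall1 and Tox3 lay 8 peaks in 1203 kb, or 6.65 per Mb, and between Tox3 and Chd9 7 peaks in 479 kb, or 14.6 per Mb. The peaks were thus sparser on the Sall1 side of Tox3 than on the Chd9 side, as counts without a test.

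The highest score of the whole locus, 891, lay between Tox3 and Chd9 (chr8:90670453-90671251, 799 bp), 158 kb from the first curated Chd9 TSS and in no annotated gene. It was higher than 98.1% of the list. The next scores between the genes were 856 at the peak upstream of Sall1, 845 (chr8:89245115-89245693, 201 kb from the Sall1 TSS), 823 (chr8:90496686-90497218) and 810 (chr8:89824511-89825117). The central 300 bases of the highest peak (chr8:90670703-90671002, plus strand) are printed for that rank, and held none of the motifs searched.
Highest peak of the locus: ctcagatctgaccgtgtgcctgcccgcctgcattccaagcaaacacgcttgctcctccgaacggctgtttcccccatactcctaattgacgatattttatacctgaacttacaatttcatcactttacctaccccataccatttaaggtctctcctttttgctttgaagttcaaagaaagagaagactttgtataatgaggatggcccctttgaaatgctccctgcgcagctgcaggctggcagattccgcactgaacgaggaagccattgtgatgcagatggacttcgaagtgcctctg

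The longest stretch without a peak ran from 89825118 to 90330686 on chromosome 8, which is 506 kb, and the next was 342 kb. Of the 40979 gaps between neighbouring peaks of the list, 1.92% were longer than the first of these. The median gap was 25.3 kb in the locus and 19.9 kb in the list. The usual spacing of the locus was thus near that of the list. Its longest gaps stood in the upper end of the list, as the longest of any 27 gaps tend to, so this is not read as a trait of the locus. Of the 27 gaps in the locus, 11 were under 15 kb, as the peaks stand in groups at its ends. Within 100 kb of the start of Sall1 or Chd9 lay 17 of the 28 peaks, and 11 lay farther from both.

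None of the 28 peaks lay within 1 kb of a curated TSS (0 peaks), where 15.6% of the list did, and none within 2.5 kb. With the starts of predicted transcripts added, a choice made after seeing the data, 2 peaks lay at a start, against 20.0% of the list. These were the last Chd9 peak and a peak with a score of 798 at Gm35963, a predicted long noncoding RNA (chr8:90762187-90762934). Of the 28 peaks, 17 scored above the median of the list, and their median score was 736. The median width was 579.5 bp, against 547 bp in the list, and the median GC content was 49.6%, against 52.1%. The peaks above the median score of the list were wider, with a median of 697 bp, than the other 11, with a median of 499 bp.

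**Figure D3:**
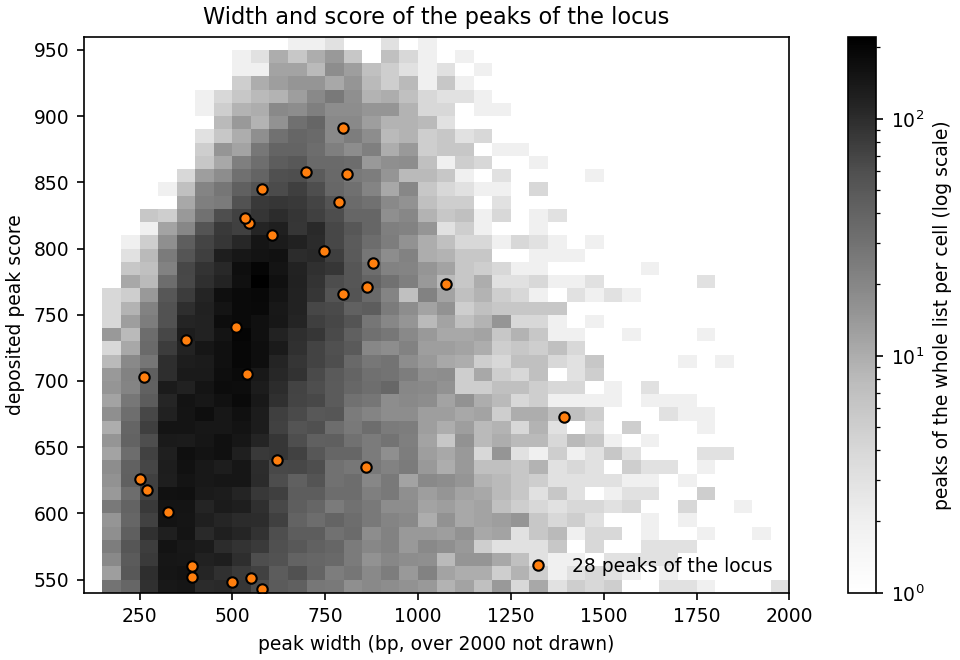
Each orange point is a peak of the locus, by width (bp, x axis) and deposited score (y axis), over the peaks of the whole list counted in cells of 50 bp and 10 score units (grey, log scale). The 28 points lie within the cloud of the list, from 251 to 1394 bp and from 543 to 891 in score.

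Of the 500 ZBTB21-responsive loops of the study, 2 overlapped Sall1 or Chd9. The first, the Sall1-Chd9 loop, joins an anchor downstream of Sall1 (chr8:89000001-89025000) to an anchor inside Chd9 (chr8:90875001-90900000) over 1900 kb. Sall1 itself lies inside the loop, its 3′ end 2241 bp from the anchor and its TSS 19.2 kb from it. The anchor in Chd9 begins 46.2 kb after the first curated TSS, so neither anchor covers an annotated start of these genes. The second, the intergenic-Chd9 loop, joins an anchor between Sall1 and Tox3 (chr8:89825001-89850000), 781 kb from the Sall1 TSS, to an anchor near the 3′ end of Chd9 (chr8:91025001-91050000) over 1225 kb. Since the study ranked loops through signals summed at ATAC-seq peaks, the number of peaks in them is not independent of that choice.

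The Sall1-Chd9 loop held 26 peaks from outer edge to outer edge and the intergenic-Chd9 loop held 17, with 15 peaks in both. The median responsive loop held 24 peaks over 800 kb. Per Mb, the Sall1-Chd9 loop held 13.7 peaks and the intergenic-Chd9 loop 13.9, where the median responsive loop held 30.4. More peaks per Mb were counted in 451 and 445 of the 500 loops. The loops were long, with 16 and 63 longer loops, and they held 3 and 2 protein-coding genes with a TSS against a median of 7. Their GC content was 43.1% and 42.4%, against a median of 44.9%. Among the longer loops, peaks per Mb were fewer in 9 of the 16 longer than the Sall1-Chd9 loop (median 12.6) and in 22 of the 63 longer than the intergenic-Chd9 loop (median 19.1). The Sall1-Chd9 loop was thus near the middle of the loops of its length or more. The part of length, of the few genes and of the GC content in the density was not tested. Both loops held 0 peaks at curated promoters, as did 67 of the 500 loops in all.

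**Figure D4:**
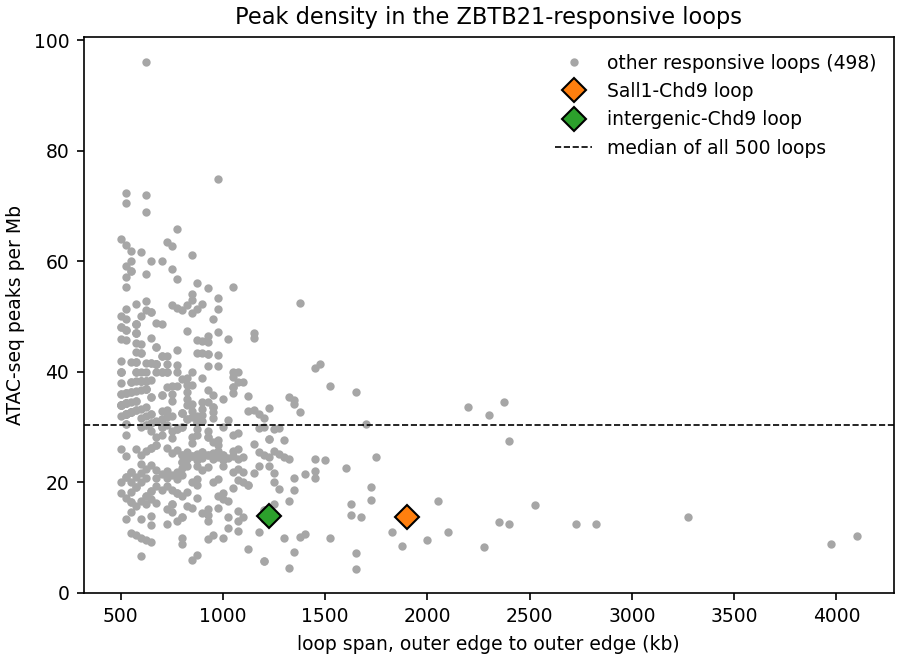
Each point is a ZBTB21-responsive loop, by span (kb, x axis) and ATAC-seq peaks per Mb (y axis), with a dashed line at the median of the 500 loops (30.4). The loops that overlap Sall1 and Chd9 are the diamonds at 13.7 and 13.9 peaks per Mb, under the dashed line.

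The anchors of the Sall1-Chd9 loop held 6 peaks, and only 10 of the 500 loops had more peaks in their anchors. The anchor beside Sall1 held 4 of them, with scores of 819 (chr8:89003342-89003886), 618 (chr8:89007147-89007415), 548 (chr8:89012082-89012580) and 858 (chr8:89015421-89016117). Of the 918 distinct anchors of responsive loops, 34 (3.70%) held 4 or more peaks. These peaks lay between 28.0 and 40.3 kb from the Sall1 TSS, and the same anchor holds Mir8110, a microRNA gene, with no peak on it. The anchor in Chd9 held 2 peaks, with scores of 731 (chr8:90892479-90892854) and 640 (chr8:90896939-90897558). In the anchors together the density was 120 peaks per Mb, against 10.8 per Mb in the span between them. The median responsive loop held 2 peaks in its anchors. This contrast of densities is not given here for other loops, so how far it is particular to this loop is unknown.

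The intergenic-Chd9 loop had 1 peak in its anchors. That peak (chr8:89824511-89825117, score 810) overlaps the edge of the first anchor by 117 of its 607 bp, and with the centre or the whole peak required inside, the anchors held 0 peaks, whereas those of the Sall1-Chd9 loop still held 6. The anchor in Chd9 held 0 peaks by any of these rules. No peak at all was found in 420 of the 918 anchors (45.8%), so an empty anchor was common.

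The peaks at the anchors are shown with the CTCF search, since CTCF is known to bind at many loop anchors. The core of the CTCF motif, without its degenerate flanks, was searched on both strands in the central 300 bases of each peak and was found in 2 of the 28 peaks, against 16.6% of the list. In the peak at the edge of the first anchor of the intergenic-Chd9 loop (central bases chr8:89824665-89824964) and in a peak 438 kb from the Sall1 TSS with a score of 551 (chr8:89482283-89482833, central bases chr8:89482409-89482708) the match was on the minus strand. The first of these matches ended 136 bp before the anchor, so it lies outside it, by far less than the 25 kb of an anchor. Sequences are printed on the plus strand with the match in capitals.
Peak at the anchor edge of the intergenic-Chd9 loop: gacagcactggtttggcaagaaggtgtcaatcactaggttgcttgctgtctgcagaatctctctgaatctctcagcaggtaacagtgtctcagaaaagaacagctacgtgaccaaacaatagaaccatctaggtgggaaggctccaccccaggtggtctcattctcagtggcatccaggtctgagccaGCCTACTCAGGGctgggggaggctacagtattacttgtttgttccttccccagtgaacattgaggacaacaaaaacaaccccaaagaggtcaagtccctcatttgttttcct
Peak between Sall1 and Tox3: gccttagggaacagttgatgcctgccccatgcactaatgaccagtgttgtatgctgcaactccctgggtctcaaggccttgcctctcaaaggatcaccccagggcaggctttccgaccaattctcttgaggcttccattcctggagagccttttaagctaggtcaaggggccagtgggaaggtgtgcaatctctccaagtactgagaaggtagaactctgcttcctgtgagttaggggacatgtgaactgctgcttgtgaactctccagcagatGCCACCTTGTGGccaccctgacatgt
No peak in the anchors of the Sall1-Chd9 loop held this core, also over the whole peak. The peak with the highest score in the anchor beside Sall1 (858, central bases chr8:89015620-89015919) held instead 2 matches to GGGNGTGG, marked in capitals, with opposite strands.
Anchor peak beside Sall1: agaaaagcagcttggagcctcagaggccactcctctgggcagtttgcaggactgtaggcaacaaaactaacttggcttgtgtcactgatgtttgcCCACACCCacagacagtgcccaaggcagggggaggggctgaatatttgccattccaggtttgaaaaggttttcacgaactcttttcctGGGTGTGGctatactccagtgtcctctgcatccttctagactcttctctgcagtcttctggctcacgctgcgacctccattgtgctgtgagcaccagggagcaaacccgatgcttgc
Such a KLF match was present in 8 of the 28 peaks and in 23.3% of the list.

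Of the other motifs, TGANTCA, bound by AP-1, was found in 2 peaks (11.3% of the list), and ATTTGCAT, the octamer that POU factors such as OCT4 bind, in 1 peak (2.85% of the list). The ZNF143 and YY1 motifs and TCAAGGTCA, bound by ESRRB, were found in 0 peaks of the locus, and in 0.0902%, 0.229% and 1.27% of the list. The peak with the octamer, chosen for print after its sequence was seen, holds it at 2 positions on opposite strands. It lies between Tox3 and Chd9 (chr8:90520280-90520530, 251 bp, score 626) and is printed whole, on the plus strand, with the octamers in capitals.
Peak with the octamers: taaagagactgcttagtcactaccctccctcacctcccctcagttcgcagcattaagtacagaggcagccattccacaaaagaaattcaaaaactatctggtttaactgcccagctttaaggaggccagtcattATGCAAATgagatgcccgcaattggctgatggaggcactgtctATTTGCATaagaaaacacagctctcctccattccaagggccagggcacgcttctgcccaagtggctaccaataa

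ZBTB21 had 1 peak in the locus, among 1827 in the study's ZBTB21 ChIP-seq peaks of mESCs. That ChIP-seq used a GFP antibody on mESCs whose ZBTB21 carries a degron and GFP tag, while the ATAC-seq list comes from untreated V6.5 cells. Overlaps between the lists are therefore not measured in the same cells. It lies at the start of Chd9 (chr8:90827932-90828710, 779 bp), covers the starts of the predicted transcripts at 90828302 and 90828537, and ends 125 bp before the first curated TSS. It is the only ZBTB21 peak of both loops, and it lies 46.3 kb outside the Chd9 anchor of the Sall1-Chd9 loop. A ZBTB21 peak inside the loop is part of how responsive loops were defined, and 283 of the 500 loops held 1 such peak. In the anchors of these loops there was no ZBTB21 peak, as in 418 of the 500. For Sall1, this same peak at Chd9 was the nearest, 1784 kb from its TSS.

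No ATAC-seq peak of the locus overlapped the ZBTB21 peak (0 of 28), where 1.98% of the list overlapped a ZBTB21 peak. The nearest one was 11.2 kb away. Of the 1827 ZBTB21 peaks, 801 (43.8%) overlapped an ATAC-seq peak and 461 (25.2%) lay farther from any than the peak at Chd9 did. Within 1 kb of a TSS, 1288 protein-coding genes (6.13% of 21000) had a ZBTB21 peak. An ATAC-seq peak also lay within 1 kb at 653 of these (50.7%), whereas 382 (29.7%) had none within 10 kb, Chd9 among them.

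**Figure D5:**
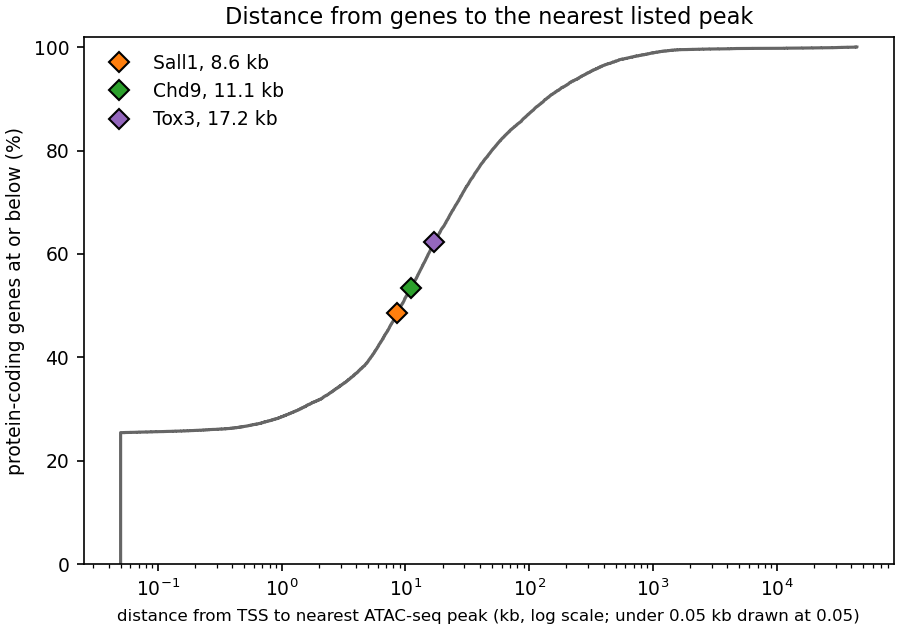
The curve gives the share of the 21000 protein-coding genes (y axis, percent) whose nearest listed peak lies within a distance of the TSS (x axis, kb, log scale). Sall1 (8.60 kb), Chd9 (11.1 kb) and Tox3 (17.2 kb) are the diamonds, all in the middle of the curve.

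Among the relatives of the genes, the SALL family had 1 member of 4 with a peak within 1 kb of a TSS. This was Sall4, a pluripotency factor, with a score of 820, while the nearest peaks to Sall2 and Sall3 were 2.35 and 5.51 kb away. In the CHD family 3 of 9 had one, Chd1 (score 842), Chd2 (769) and Chd7 (724). Chd9 was the longest gene of that family and held the most peaks in its body, ahead of Chd2 with 5. Per Mb of gene, 4 of the 9 held more than Chd9 (35.4), which were Chd4 (57.8), Chd1 (44.3), Chd2 (43.4) and Chd5 (38.8). A ZBTB21 peak within 1 kb of a TSS was present at Chd9 alone among the 13 genes of both families (7.69%). Of all protein-coding genes, 6.13% had one. The study had reported ZBTB21 binding at this locus, and its loops needed a ZBTB21 peak to be called responsive. The share is therefore no result about the families. Of 13 genes for NuRD subunits, the complex that SALL proteins recruit, 3 had a promoter peak, which were Hdac1 (685), Mta3 (596) and Gatad2a (733). The shares with an ATAC-seq peak stand beside 28.5% of all protein-coding genes, and no share was tested.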

How the data were processed

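The authors deposited 1 list of ATAC-seq peaks for the 2 untreated replicates, in mm10 coordinates, with a score per peak and no strand. The submitters' processing notes name cutadapt 2.6, Bowtie2 2.3.5.1 and MACS2 2.1.1, with no role for this list. How the score was made is not stated for ATAC-seq. For ChIP-seq the study filtered replicates by IDR at 0.05, and 540, the lowest deposited score, equals the scaled score of that IDR, so scores may reflect agreement between replicates. Other deposited values used were the peak starts and ends. Peaks were counted when they overlapped a region by at least 1 bp. Loops and ZBTB21 peaks came from the study's supplementary lists, made in ZBTB21-degron mESCs, as positions only. Genes, TSSs (curated transcripts, 31601 positions) and sequences came from RefSeq on GRCm38.p6, the assembly that mm10 names. 0 columns of sample values were left unused. Single peaks were described where they lay in Sall1 or Chd9, within 10 kb of their TSSs, in an anchor or among the 5 highest scores between the genes. Outside this rule, and chosen after their values were seen, are the Tox3 peak, the peak at Gm35963, the nearest peak upstream of Chd9, the peak with the octamers and the peak between Sall1 and Tox3 with the CTCF core. Genes named by rule were the coding genes of the locus and the lists of relatives and markers, and Gm3134, Gm35963 and Mir8110 were added for their positions. The members and lists were chosen with earlier results of these data known. Overlaps, distances and motif search were tested on simulated data and gave 0 errors. Alternatives were the overlap rule, the inner span or anchors of loops, peaks above the median score, peaks within 500 bp merged, genes with 10 kb added, and TSSs within 2.5 kb. Python 3.11.15, numpy 2.4.6, pandas 2.3.3, pysam 0.24.0 and samtools 1.23.1 were used.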

Additional observations from a re-analysis of the deposited data

How the results depend on the processing

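Of 36 values recomputed with other settings for 11 results, 24 stayed within a set limit. Some of these 24 could not move, so the tally is no measure of robustness. With 0 peaks in Sall1, a stricter overlap rule or a score cut-off can only give 0. With 0 peaks at a promoter, the score cut-off gives 0 and the median score away from promoters stays the same. For a count, the limit was 1.5 times the main value. For the percentiles and the median score, it was a 95% interval that took the loops or the peaks of the locus as independent. Loops overlap and the peaks share a locus, so this interval served only as a cut-off and gives no spread between replicates. With only the peaks that score above the median of the list, Chd9 held 5 peaks, the interval between the genes 10, the Sall1-Chd9 loop 15 and the intergenic-Chd9 loop 11. In the anchors only, these loops held 6 and 1. With 10 kb added on each side, Sall1 held 1 peak. In peaks per Mb, 9.80% of the responsive loops lay at or under the Sall1-Chd9 loop, which became 7.20% in the inner span and 15.6% with the peaks above the median score. For the intergenic-Chd9 loop, 11% became 21.0% with these peaks. Over whole peaks, 4 of the 28 peaks held the CTCF core in place of 2, against 24.5% of the list in place of 16.6%. With predicted transcript starts, 2 peaks lay at a promoter in place of 0. These shifts follow from counting fewer peaks, a part of the span, longer windows or more starts, except the percentiles, for which the cause was not tested. The list has no values per replicate, so no replicate could be left out. No paired analysis was possible because the list pools both untreated replicates. Depth is unknown, and a peak absent from the list may lie under its lowest score of 540.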
